A study of Mus musculus with 141 samples.

Results

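The genes Trem2, Cd68, Cd9, Itgax, Adgre1, Mrc1, Cd163, Spp1 and Atp6v0d2 are used to recognise macrophages in adipose tissue, and their levels were followed across a genetic panel of mice in both sexes. They were chosen by name as markers, with earlier results of these data known, and 9 of 9 were found among the 36558 genes listed. RNA was sequenced from subcutaneous (inguinal) adipose tissue of the Hybrid Mouse Diversity Panel, a collection of inbred and recombinant inbred strains. The mice ate chow until 8 weeks of age and then a high-fat, high-sucrose diet for 8 weeks, so that no group without this diet was included here. Females gave 67 libraries and males 74, drawn from 82 strains with at most 1 library per strain and sex, and both sexes were present for 59 of them. The strains were 40 BXD lines, 11 AXB or BXA lines, 3 CXB lines, 4 BXH lines and 24 classical inbred strains. BXD lines are derived from C57BL/6J and DBA/2J, and AXB or BXA lines from A/J and C57BL/6J. Among the BXD lines, BXD24/TyJ-Cep290<rd16>/J, present in both sexes, carries the rd16 allele of Cep290 by its label.

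Macrophages of a lean fat pad are mostly resident cells that take up debris and hormones by scavenger receptors, among them the mannose receptor Mrc1 (CD206) and the haemoglobin scavenger receptor Cd163. In obesity, further macrophages gather around dying adipocytes, load themselves with lipid and express the lipid receptor Trem2, the tetraspanin Cd9, the lysosomal membrane protein Cd68, the integrin Itgax (CD11c) and the secreted phosphoprotein Spp1 (osteopontin). Adgre1 encodes F4/80, a surface receptor of most mouse macrophages, and Atp6v0d2 encodes a subunit of the proton pump of the lysosome that is found in macrophages and osteoclasts. Several of these genes are not specific to macrophages: Cd9 is also made by epithelial cells, and Spp1 by mammary epithelium and bone. In tissue RNA of this kind, fewer macrophages and less RNA of a gene per macrophage cannot be told apart.

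The members lie on 7 chromosomes of GRCm38, each as a protein-coding gene. Mrc1 is at chr2:14229392-14332057, Atp6v0d2 at chr4:19876841-19922605, Spp1 at chr5:104435118-104441050, Cd163 at chr6:124304656-124330527, Cd9 at chr6:125460266-125494791, Itgax at chr7:128129547-128150657, Cd68 at chr11:69664213-69666153, Trem2 at chr17:48346401-48354147 and Adgre1 at chr17:57358691-57483527. Kallisto counts reads by transcript over all exons of these genes. RefSeq start sites of the GRCm38.p6 build were found for 7 of the 9 members, and Adgre1 and Atp6v0d2 are the members without one. The 250 bases before the start are printed for 3 members as examples. Cd68 and Itgax varied together over the libraries, as other pairs did, whereas Cd9 differed between the sexes in the opposite direction. Lower case is sequence 5′ to 3′ on the strand of the gene, and capitals mark the AP-1 motif TGACTCA, the ETS core GGAAGT and the GC box GGGCGG, each searched on both strands.

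Cd68, minus strand, chr11:69666171-69666420: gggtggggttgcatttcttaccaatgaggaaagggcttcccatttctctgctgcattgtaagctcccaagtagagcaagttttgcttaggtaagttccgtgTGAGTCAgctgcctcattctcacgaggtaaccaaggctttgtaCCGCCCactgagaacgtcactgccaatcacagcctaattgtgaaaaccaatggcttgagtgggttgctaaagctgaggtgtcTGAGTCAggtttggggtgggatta

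Itgax, plus strand, chr7:128129300-128129549: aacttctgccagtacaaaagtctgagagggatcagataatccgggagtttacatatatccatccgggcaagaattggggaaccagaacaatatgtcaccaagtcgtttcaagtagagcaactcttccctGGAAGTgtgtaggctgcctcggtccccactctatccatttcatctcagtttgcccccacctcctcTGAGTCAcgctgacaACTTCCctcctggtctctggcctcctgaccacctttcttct

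Cd9, minus strand, chr6:125494761-125495010: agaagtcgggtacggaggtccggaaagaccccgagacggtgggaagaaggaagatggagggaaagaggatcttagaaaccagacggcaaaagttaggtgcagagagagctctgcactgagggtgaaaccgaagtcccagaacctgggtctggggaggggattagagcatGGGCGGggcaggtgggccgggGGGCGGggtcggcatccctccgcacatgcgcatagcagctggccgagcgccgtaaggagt

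The AP-1 motif occurred in 4.46% of the 32851 promoter windows of the same length, and among the 7 members in Cd68 and Itgax. The ETS core, a motif of the family that holds the macrophage factor PU.1, occurred in 19.7% of all windows and in those of Itgax, Mrc1 and Spp1. The GC box was in 32.7% of all windows and in those of Cd9, Cd68 and Mrc1. The TATA box TATAAA (12.4% of all windows) was found for Spp1, and the E-box CACGTG (6.02%) in none of the member windows. None of these motifs was found for Trem2 and Cd163, which also varied with other members. In males r was 0.91 for Trem2 with Cd68 and 0.80 for Mrc1 with Cd163, and in females 0.64 and 0.83. A relation of the motifs to shared variation was not tested. No capitals of different motifs overlapped in the printed windows. These matches are letters in a window and not measured binding sites.

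Depth was 6269154 to 78562648 estimated counts per library, with a median of 30233245, and 3 counts at the median depth correspond to 0.0992 CPM, the unit of counts scaled to library size. Of the 9 members, 7 had at least 12 counts in every library. The others were Spp1, with 1 count, and Atp6v0d2, with 3 counts, both in the library labelled female of BXD34/TyJ, which was also the shallowest. Y-linked genes went against the label in 3 libraries, the females of BXD34/TyJ and BXD69/RwwJ and the male of NZW/LacJ, and of these strains NZW/LacJ is the one with both sexes. Adipocyte genes, the check of the tissue label, summed to 3739 to 38809 CPM in females and 8305 to 45694 CPM in males.

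Levels are compared between genes in TPM, a transcript level scaled for length and for the library total. Cd9 stood highest in both sexes and Trem2 lowest. In females the medians ran from Cd9 (157 TPM) through Mrc1 (38.03), Cd68 (26.1), Cd163 (21.7), Adgre1 (11.4), Spp1 (7.55), Itgax (6.48) and Atp6v0d2 (1.86) to Trem2 (1.35). In males the order was Cd9 (76.2 TPM), Mrc1 (50.4), Cd68 (43.1), Cd163 (26.1), Adgre1 (20.1), Itgax (11.1), Atp6v0d2 (8.71), Spp1 (6.74) and Trem2 (4.06). Between neighbours in this order the interquartile ranges overlapped in every case but Cd9 and Mrc1 in females. Cd9 was above Mrc1 in 67 of 67 female libraries, whereas Mrc1 was above Cd68 in 38 of 74 male libraries.

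The level of Trem2 has a limit of its own. A second gene identifier in the tables, ENSMUSG00000116470, which has no symbol in the name table used here, held exactly the count and TPM of Trem2 in each of the 67 female and 74 male libraries. The sum of both rows had medians of 2.70 TPM in females and 8.12 TPM in males, which is above Atp6v0d2 in females and above Spp1 in males, so that Trem2 would be lowest in neither sex, and whether the rows share reads was not tested. Ratios between libraries are the same either way. No other member had such a row.

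**Figure D1:**
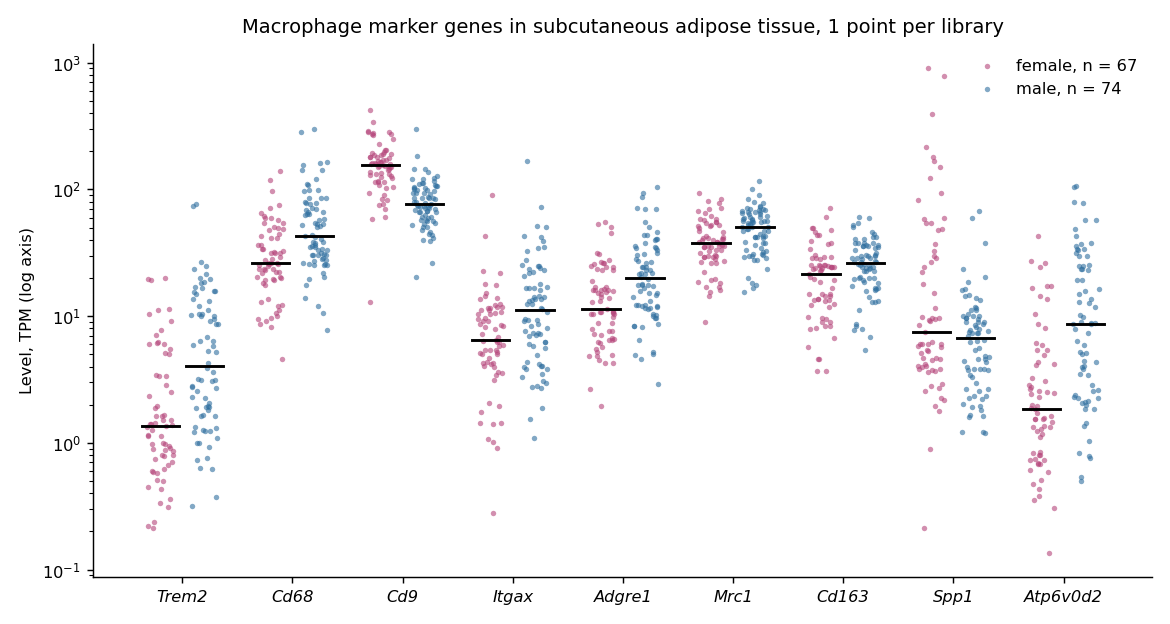
Level of each member in TPM on a log axis, 1 point for each of 67 female and 74 male libraries, with bars at the medians. Cd9 is the highest member in both sexes, and Spp1 spans the widest range in females, from 0.211 to 905 TPM. The library at 0.211 TPM is BXD34/TyJ, whose Y-linked genes went against the label.

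The comparison of sexes asked whether males and females of the same strain differed in these markers, with strain as the pairing. Over the 59 strains with both sexes, 7 members were lower in females and 2, Cd9 and Spp1, were higher (edgeR quasi-likelihood test with Benjamini-Hochberg adjustment). Over all genes tested, 29.8% were called lower and 28.4% higher in females, so a call in either direction was common. The counts of 7 and 2 were the same without NZW/LacJ and without CE/J and KK/HlJ. The median log2 fold change of the members was -0.73, against 0.01 for all genes tested. For 7 members, 90.5% or more of the genes tested had a smaller absolute log2 fold change, and for Mrc1 and Cd163 the shares were 78.5% and 81.8%. The members were chosen with earlier results of these data known, so their median and these shares are a description and not a test.

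Atp6v0d2 and Trem2 had the largest differences among the members with higher levels in males. Atp6v0d2 was 0.136 to 42.5 TPM in females, with a median of 1.86, and 0.499 to 105.5 TPM in males, with a median of 8.71. The lowest and the highest female library were BXD34/TyJ and BXD69/RwwJ, whose Y-linked genes went against the label. The ranges overlapped, yet the male library was the higher one in 53 of 59 strains. The fitted level was 3.86-fold higher in males (log2 fold change of females over males -1.95 ± 0.24 SE, adjusted p = 4.5e-10, edgeR). Trem2 ran from 0.211 to 19.8 TPM in females, with BXD69/RwwJ again the highest, and from 0.318 to 76.9 TPM in males. It was also higher in males in 53 of 59 strains, by 2.61-fold (log2 -1.38 ± 0.18 SE, adjusted p = 4e-09, edgeR).

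Cd68, Itgax and Adgre1 differed by less. Cd68 was 4.58 to 140.8 TPM in females and 7.70 to 299 TPM in males, and was 1.78-fold higher in males (log2 -0.83 ± 0.12 SE, adjusted p = 4.87e-08, edgeR). Itgax, the integrin of CD11c-positive macrophages and dendritic cells, ranged from 0.281 to 90.1 TPM in females and 1.08 to 167 TPM in males. Its male library was higher in 43 of 59 strains and by 1.76-fold (log2 -0.81 ± 0.17 SE, adjusted p = 6.31e-05, edgeR). Adgre1 was 1.963 to 55.6 TPM in females and 2.90 to 104.2 TPM in males, with a 1.66-fold higher level in males (log2 -0.73 ± 0.14 SE, adjusted p = 1.09e-05, edgeR). In all 3 genes both ends of the range were higher in males, and the ranges overlapped. The lowest female library for Cd68 and Itgax was BXD34/TyJ, and the highest for Adgre1 was BXD69/RwwJ. Y-linked genes of both libraries went against the label, and neither strain is among the 59 with both sexes.

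The scavenger receptors of resident macrophages had the smallest differences. Mrc1 averaged 100.5 ± 42.5 CPM (SD, n = 59) in females and 133.1 ± 51.4 CPM (SD, n = 59) in males, a 1.33-fold higher level in males (adjusted p = 0.000705, edgeR). Cd163 averaged 51.02 ± 29.7 CPM (SD, n = 59) and 66.5 ± 30.2 CPM (SD, n = 59), which was 1.38-fold higher in males (adjusted p = 0.00175, edgeR). Their male library was higher in 43 and 42 of 59 strains.

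Cd9 went the other way in nearly every strain. It was 13.03 to 427 TPM in females, with a median of 157, and 20.5 to 298 TPM in males, with a median of 76.2. The lowest female library was BXD34/TyJ, the shallowest one, whose Y-linked genes went against the label. The female library was higher in 55 of 59 strains, by 1.94-fold (log2 0.95 ± 0.08 SE, adjusted p = 5.3e-15, edgeR). Spp1 was higher in females in 35 of 59 strains and by a fitted 2.07-fold (log2 1.05 ± 0.36 SE, adjusted p = 0.0111, edgeR). The medians of Spp1 were close, 7.55 TPM in females and 6.74 TPM in males, and the difference lay in the upper range: 8 of 67 female libraries were over 100 TPM and 0 of 74 male libraries. The highest females were SJL/J (905 TPM), BXD56/RwwJ (786 TPM) and SWR/J (395 TPM), whereas the highest male, CE/J, had 67.4 TPM. The size of the Spp1 difference rested on the pairing, since without strain in the fit the log2 fold change was 2.81.

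**Figure D2:**
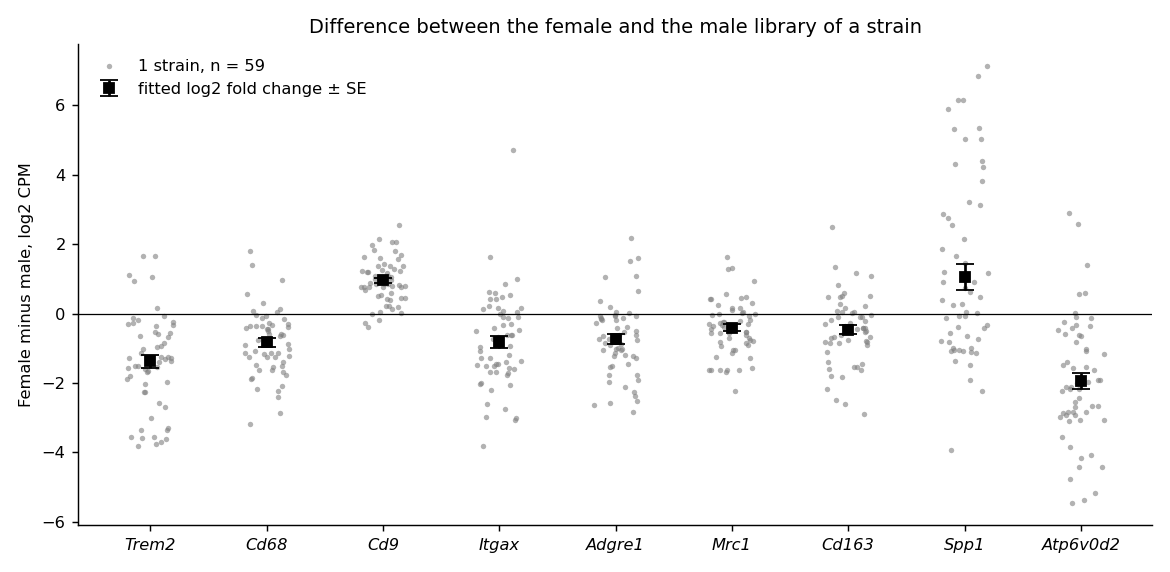
Female minus male log2 CPM of each member, 1 grey point for each of 59 strains, with the fitted log2 fold change ± SE in black. The points of Cd9 are above 0 in 55 strains, those of Trem2 and Atp6v0d2 below 0 in 53 strains, and those of Spp1 spread to both sides.

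Genes of mammary epithelium moved with Cd9 and Spp1. The inguinal pad of females holds the mammary gland, and 9 of 9 mammary epithelial markers were higher in females, with a median log2 fold change of 6.90. Their summed level was 0.887 to 2197 CPM in females (median 487) and 0.287 to 483 CPM in males (median 2.55), with Krt14, Krt5 and Cldn7 at a median under 3 counts in males. Y-linked genes went against the label in the lowest female library, BXD69/RwwJ, and in the highest male library, NZW/LacJ. Over the 67 female libraries, log2 CPM of Cd9 correlated with the log2 sum of these markers (Pearson r = 0.63 and Spearman rho = 0.88, both adjusted p = 4.5e-05, permutation test, 90 relations). Without the 2 libraries farthest from the median sum, r was 0.88. For Spp1 the values were r = 0.33 (adjusted p = 0.0137), rho = 0.44 (adjusted p = 0.000703) and r = 0.51 without those 2 libraries. In the 74 male libraries r was -0.07 for Cd9 (adjusted p = 0.607) and 0.13 for Spp1 (adjusted p = 0.338). The part of mammary epithelium in the higher Cd9 and Spp1 of females was not tested.

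Single libraries show both sides of this. SJL/J, BXD56/RwwJ and SWR/J, the highest females for Spp1, were also the females with the third, the first and the second highest level of Lalba, the milk protein alpha-lactalbumin (60.6, 131.3 and 98.4 CPM, against a median of 0.714 CPM over female libraries). Their mammary sums were 925, 1406 and 1961 CPM. KK/HlJ had the highest mammary sum of all females, 2197 CPM, with 93.1 TPM of Spp1, and SM/J had 1360 CPM with 6.01 TPM. Of the libraries labelled male, NZW/LacJ, whose Y-linked genes went against the label, and PL/J had mammary sums of 483 and 331 CPM. Their Cd9 was 126.7 and 85.6 TPM and their Spp1 2.66 and 18.6 TPM. The male of CE/J, highest for both genes (298 TPM of Cd9 and 67.4 TPM of Spp1), had a mammary sum of 0.686 CPM.

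Other macrophage genes from lists of known markers, chosen with earlier results of these data known, were read beside the members. Over all genes tested, 29.8% were called lower and 28.4% higher in females. Of 20 genes of lipid-associated macrophages, 17 were lower in females, 0 higher and 3 did not pass, and their median log2 fold change was -0.43. The largest were Mmp12, the macrophage elastase (28.6 CPM in females and 136.2 CPM in males, 4.39-fold higher in males, adjusted p = 2.15e-10, edgeR), and Gpnmb, a lysosomal glycoprotein (3.19-fold higher in males, adjusted p = 1.08e-08). Of 15 subunits and partners of the proton pump to which Atp6v0d2 belongs, 12 were lower in females and 3 did not pass, with a median of -0.17. Atp6v0a1 led them at 1.51-fold higher in males and Atp6v1b2 followed at 1.32-fold, both below the 3.86-fold of Atp6v0d2.

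Of 18 listed genes of resident macrophages, 3 were lower in females, 1 was higher and 14 did not pass (median log2 fold change -0.04). The chemokine Pf4 (1.42-fold) and the scavenger receptor Stab1 (1.29-fold) were higher in males, and Gas6, a bridging ligand for uptake of dead cells that other cell types also make, was higher in females (151 against 93.5 CPM). Of 20 pan-macrophage genes, 13 were lower and 2 higher in females, with a median of -0.29. Fcgr3 and Itgam, an Fc receptor and the integrin CD11b, were 1.44-fold and 1.42-fold higher in males, whereas Cd14 (38.03 against 15.6 CPM) and Cx3cr1 (10.2 against 7.70 CPM) were higher in females. Of 14 tested ligands and receptors that act on macrophages, 3 were lower in females and 5 higher. The shares over all genes tested, 29.8% lower and 28.4% higher, apply to each of these lists. The chemokine Ccl2 was 2.00-fold and the haem oxygenase Hmox1 1.44-fold higher in males, and the ligands Cx3cl1 (22.3 against 7.19 CPM) and Tnfsf11 (8.96 against 1.94 CPM) were higher in females.

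Markers of other cells were read in the same way, beside 29.8% of all genes tested called lower and 28.4% called higher in females. All 8 adipocyte markers were lower in females (median log2 fold change -0.60), as were 5 of 5 endothelial markers (-0.37). Of 10 lymphocyte markers 0 passed in edgeR and 0 had an unadjusted p under 0.05, at a median of 0.55, whereas DESeq2 called 3. Of 7 dendritic cell markers 1 was lower and 0 higher, of 7 monocyte markers 2 were lower and 1 higher, and of 5 neutrophil markers tested 1 was lower. The part of these cells in the differences of the members was not tested.

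Over the libraries of a sex, summed markers of other cells also varied with the members, among the same 90 relations. All values of a library share its cell composition and its scaling. The share of all genes that would pass with each sum is not given beside these counts. The sum of fibroblast and progenitor markers had a positive correlation that passed with 7 of 9 members in females and 9 of 9 in males. Its r was 0.76 and 0.80 with Mrc1 (rho = 0.78 and 0.79) and 0.73 and 0.69 with Cd163 (rho = 0.69 and 0.69), females first, and 0.75, 0.77, 0.68 and 0.65 without 2 extreme libraries. The lymphocyte sum had negative correlations that passed with 5 members in females and 7 in males, the furthest from 0 in females being Cd163 (r = -0.55, rho = -0.54) and in males Adgre1 (r = -0.47, rho = -0.41). The mammary sum passed with a negative sign for 6 members in each sex. In females these ran down to r = -0.34 for Adgre1 (rho = -0.29, adjusted p = 0.0111 for r), and without 2 extreme libraries it was -0.23. In males they ran down to r = -0.43 for Atp6v0d2 (rho = -0.42), with -0.39 without 2. By rank, the female relations of Trem2 (rho = -0.19), Cd68 (rho = -0.08) and Atp6v0d2 (rho = -0.24) did not pass. Their adjusted p of rho was 0.173, 0.574 and 0.0846 (permutation test), and r without 2 extreme libraries was -0.13, -0.07 and -0.08. The sum of adipocyte markers passed with 4 members in females with a positive sign and 1, Itgax (r = -0.37), with a negative sign, and with 2 in males. The sum of the pan-macrophage genes passed, with a positive sign, for 3 of 9 members in females and 8 of 9 in males. In females these were Itgax (r = 0.79), Cd68 (r = 0.73) and Adgre1 (r = 0.40), and the other members had r from -0.14 (Cd163) to 0.21 (Atp6v0d2). In males Cd163 did not pass (r = 0.17), and Spp1 passed by r (0.26) but not by rho (0.14).

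The strain comparison asked whether strains differed once the mean difference between sexes was taken out. All members but Mrc1 passed, 8 of 9 (edgeR quasi-likelihood test over 59 strains), where 71.2% of all genes tested passed. Trem2 had the smallest adjusted p (1.02e-07), followed by Atp6v0d2 (4.61e-06), Itgax (6.14e-05) and Cd68 (8.76e-05). Adgre1 (0.00337), Spp1 (0.00554), Cd9 (0.0162) and Cd163 (0.0299) passed less clearly, and Mrc1 did not (0.0719). Mrc1 passed with DESeq2 (0.00366), with library totals (0.0173) and without NZW/LacJ (0.0312). Cd9 did not pass without CE/J and KK/HlJ (0.223), nor Cd163 without BXD56/RwwJ (0.0764). For Spp1 the adjusted p was 0.386 with limma on log2(TPM + 1).

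The share of variance that both libraries of a strain had in common, given as an intraclass correlation of log2 CPM, was 0.56 for Trem2, 0.48 for Atp6v0d2 and 0.42 for Cd68. It was 0.35 for Itgax, 0.33 for Adgre1, 0.28 for Cd163, and 0.23 for both Cd9 and Mrc1. For Spp1 it was 0.02. The median over 15079 genes was 0.30. The spread between libraries of a sex differed among the members. The SD of log2 CPM was 1.31 in females and 1.52 in males for Trem2, 1.63 and 1.87 for Atp6v0d2, and 2.28 and 1.24 for Spp1. It was 0.53 and 0.50 for Cd9 and 0.65 and 0.64 for Mrc1, against medians of 0.45 and 0.38 over the same genes.

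Whether a strain kept its place in both sexes was read from the correlation of its female and its male library over 59 strains, with 9 relations adjusted together. Trem2 had r = 0.57 (adjusted p = 9e-05) and rho = 0.50, and r = 0.50 once the 2 strains with the most extreme female levels were left out (permutation test). Atp6v0d2 had r = 0.49 (adjusted p = 0.000315) and rho = 0.45, with 0.47 without such strains. Cd68 had r = 0.43 (adjusted p = 0.00189), Itgax 0.36 (0.0104), Adgre1 0.34 (0.0169) and Cd163 0.29 (0.0424). Their rho was 0.41, 0.41, 0.37 and 0.32, and r without 2 strains was 0.48, 0.49, 0.37 and 0.27, the last with an adjusted p of 0.0613. For Mrc1 (r = 0.23, rho = 0.29), Cd9 (r = 0.23, rho = 0.15) and Spp1 (r = 0.02, rho = 0.02) the adjusted p of r was 0.0959, 0.0959 and 0.864. The rho of Mrc1 passed (adjusted p = 0.0329), as did its r without NZW/LacJ (r = 0.29, adjusted p = 0.0351) and with library totals (r = 0.31, adjusted p = 0.0208). For Cd9, r passed on log2(TPM + 1) (r = 0.30, adjusted p = 0.0285). Without that strain r was 0.60 for Trem2, 0.40 for Adgre1 and 0.36 for Cd163.

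Within the 26 BXD strains r was 0.64 for Trem2, 0.65 for Atp6v0d2, 0.67 for Cd68, 0.59 for Itgax, 0.68 for Adgre1, 0.53 for Mrc1 and 0.60 for Cd163. Within the 33 other strains it was 0.53, 0.38, 0.31, 0.26, 0.13, -0.09 and -0.01 for the same genes. Cd9 (0.19 and 0.27) and Spp1 (0.21 and 0.00) were low in both. The difference between these sets of strains was not tested.

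**Figure D3:**
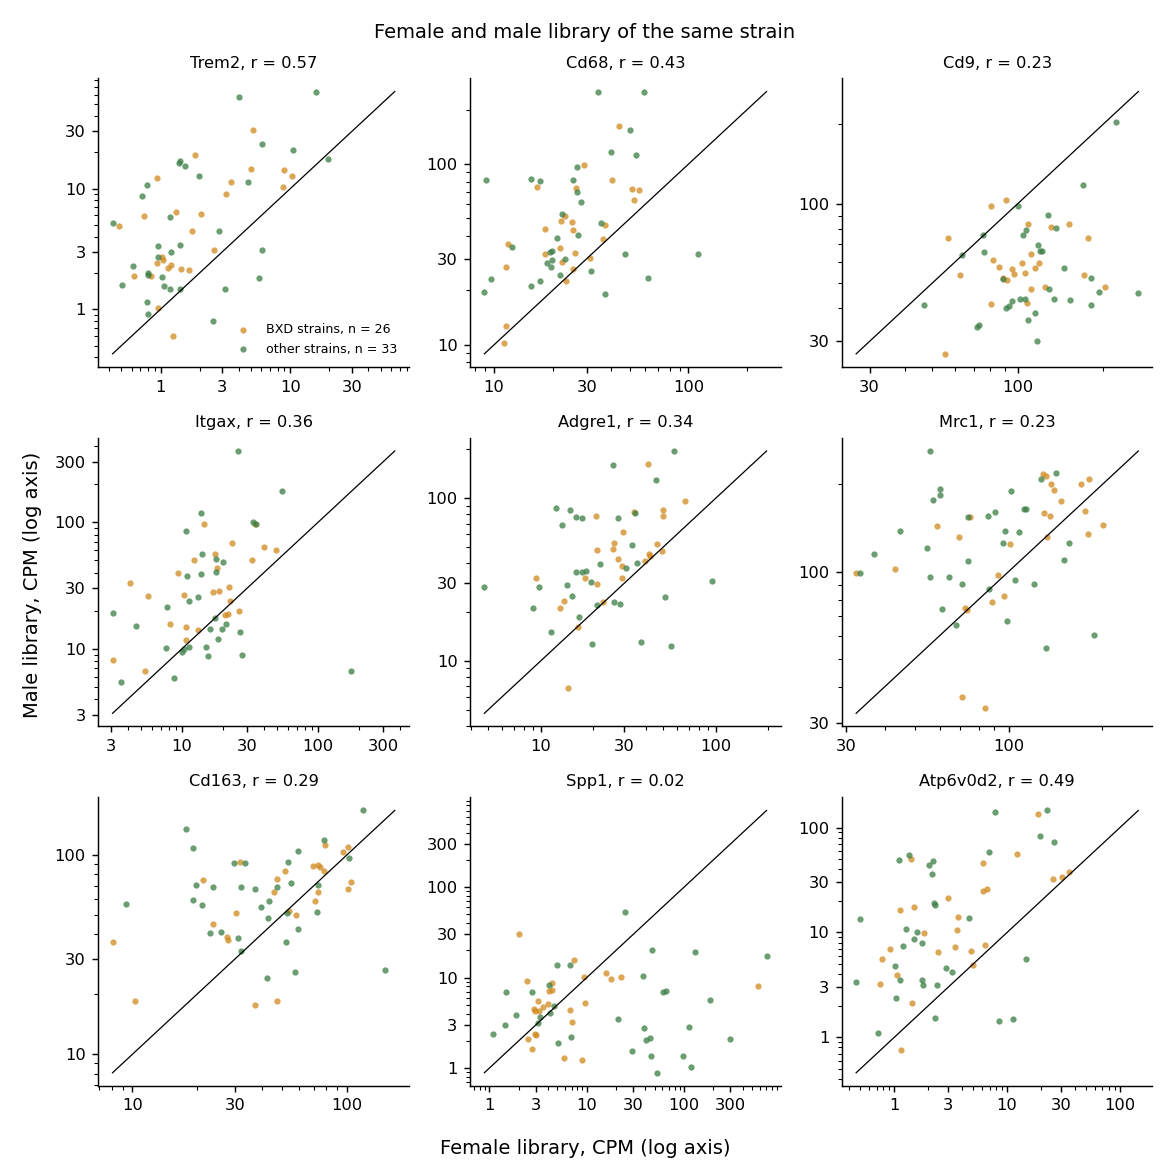
Male against female CPM of each member on log axes, 1 point for each of 59 strains, with BXD strains (26) in orange and other strains (33) in green and the line of equal levels in black. Points of Trem2 and Atp6v0d2 lie mostly above the line and rise along it (r = 0.57 and 0.49), those of Cd9 lie mostly below it, and those of Spp1 have no slope (r = 0.02).

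The same strains headed several members. Among males, ranked by TPM, CE/J was in the highest 5 of 74 libraries for 8 of 9 members and BXA11/PgnJ for 8, with KK/HlJ in it for 6. Ranked by CPM the numbers were 7, 5 and 6. CE/J and KK/HlJ had 76.9 and 74.4 TPM of Trem2, against a median of 4.06, 285 and 299 TPM of Cd68, and 103.7 and 105.5 TPM of Atp6v0d2. Itgax reached 167 TPM in KK/HlJ and 72.7 TPM in CE/J. Cd163 was near its male median of 26.1 TPM in both strains, at 30.5 and 25.7 TPM. The females of these strains had 19.6 and 5.02 TPM of Trem2 and 16.7 and 6.11 TPM of Atp6v0d2, each over the female median.

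Among females, the library labelled BXD69/RwwJ was in the highest 5 of 67 for 7 members in TPM and in CPM, with 19.8 TPM of Trem2 and 42.5 TPM of Atp6v0d2. Its Y-linked genes went against the label, and its mammary sum of 0.887 CPM was the lowest of the female libraries. In TPM, BXD6/TyJ was in the highest 5 for 5 members, and CE/J, NZW/LacJ and BXD56/RwwJ for 4 each (5, 3 and 4 in CPM). AXB12/PgnJ had the highest female Cd68 (140.8 TPM) and Itgax (90.1 TPM), while its Atp6v0d2 (1.88 TPM) was at the female median and its Spp1 was 4.59 TPM. At the lower end, the library of BXD34/TyJ was in the lowest 5 for 9 of 9 members in TPM but for 3 in CPM, where its Trem2 (3.44 CPM), Mrc1 (99.1 CPM) and Cd163 (67.03 CPM) were above the female medians of 1.42, 96.99 and 47.3 CPM. The males of CXB11/HiAJ, BXD12/TyJ, BXD40/TyJ and SWR/J were in the lowest 5 for 7, 6, 6 and 6 members in TPM and for 2, 5, 7 and 4 in CPM.

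Among the 59 strains with both sexes, the 10 highest of each sex were compared. Of these, 5 were shared for Trem2, Itgax and Atp6v0d2, 4 for Cd68 and Adgre1, 6 for Cd163, 3 for Mrc1, and 2 for Cd9 and Spp1. These counts are a description without a test, and no overlap over all genes is given beside them. CE/J was among the shared strains for Trem2, Cd68, Cd9, Itgax, Adgre1, Mrc1 and Atp6v0d2, and BXA8/PgnJ for Trem2, Cd68, Itgax, Adgre1 and Atp6v0d2.

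The parental strains of the BXD and the AXB/BXA lines, with 1 library per sex, are given as values without a test. In males Trem2 was 8.68 TPM in C57BL/6J, 18.4 TPM in DBA/2J and 4.25 TPM in A/J, and Atp6v0d2 was 24.96, 33.1 and 7.37 TPM. In females Trem2 was 0.624, 1.33 and 2.32 TPM in the same order. Spp1 in females was 1.95 TPM in C57BL/6J, the lowest of the classical inbred strains, 214 TPM in DBA/2J and 28.8 TPM in A/J. In males it was 8.55, 7.56 and 1.94 TPM.

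The family comparison asked whether groups of strains differed within a sex. In females, 2 members were lower in 32 BXD than in 21 classical inbred strains and 0 were higher, where 4.96% of all genes tested were called lower and 7.46% higher. Spp1 had a median of 4.03 CPM in BXD and 44.9 CPM in classical strains (log2 fold change -1.97 ± 0.62 SE, 3.92-fold lower in BXD, adjusted p = 0.027, edgeR). The fold of Spp1 rested on BXD56/RwwJ, the BXD female with 574 CPM: without it the log2 fold change was -3.93 ± 0.48 SE (adjusted p = 1.11e-08, edgeR). Cd9 was lower in BXD as well (log2 -0.40 ± 0.13 SE, adjusted p = 0.036, edgeR). The mammary marker sum also differed, with a median of 423 CPM in BXD and 848 CPM in classical inbred females, and its part in both calls was not tested. Neither call held without the female libraries whose Y-linked genes went against their label (adjusted p = 0.0576 for Spp1 and 0.0791 for Cd9), nor with only both families in the fit (0.051 and 0.0534). The other members had log2 fold changes from -0.42 (Trem2) to 0.74 (Atp6v0d2) and did not pass.

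In males, 0 of 9 members passed between 34 BXD and 23 classical inbred strains in edgeR and 0 in DESeq2, with 1 at an unadjusted p under 0.05, where 5.82% of all genes were called lower and 2.81% higher in BXD. The log2 fold changes ran from -0.75 (Trem2) to -0.03 (Adgre1). Between AXB/BXA and BXD strains, 0 of 9 passed in females (9 against 32) and 0 of 9 in males (11 against 34), in edgeR and in DESeq2, with 1 and 0 members at an unadjusted p under 0.05. Over all genes, 0.671% were called lower and 1.58% higher in AXB/BXA females and 0.726% and 1.73% in males. Itgax in females had a log2 fold change of 0.84 ± 0.40 SE (adjusted p = 0.244, edgeR). Spp1 in females was near 0 (log2 0.0010 ± 0.85 SE) and higher in AXB/BXA without BXD56/RwwJ (log2 1.9605 ± 0.56 SE, adjusted p = 0.0422, edgeR). By label, AXB19/PgnJ, AXB19a/PgnJ and AXB19b/PgnJ share a line number, and each was counted as a strain. Their female Spp1 was 53.9, 58.4 and 48.2 TPM, and the other AXB/BXA females ran from 2.71 to 59.3 TPM. How far these lines are independent was not tested. The 3 CXB females had Trem2 between 0.449 and 0.807 TPM and Cd163 between 6.73 and 9.45 TPM, and the 2 BXH females had Spp1 of 26.7 and 82.3 TPM, which are values without a test.

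Whether the sex difference itself differed between BXD and other strains was tested by permuting the strains. Spp1 passed: females minus males was 0.20 ± 1.77 log2 CPM (SD, n = 26) in BXD and 2.10 ± 2.83 (SD, n = 33) in other strains, a difference of -1.90 (adjusted p = 0.0357, permutation test, 9 members). In the females of these strains the mammary sum had medians of 441 CPM in BXD and 647 CPM in the others, and its part in the Spp1 result was not tested. The remaining 8 members had differences between -0.33 (Itgax) and 0.30 (Mrc1), with adjusted p from 0.478 to 0.987.

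**Figure D4:**
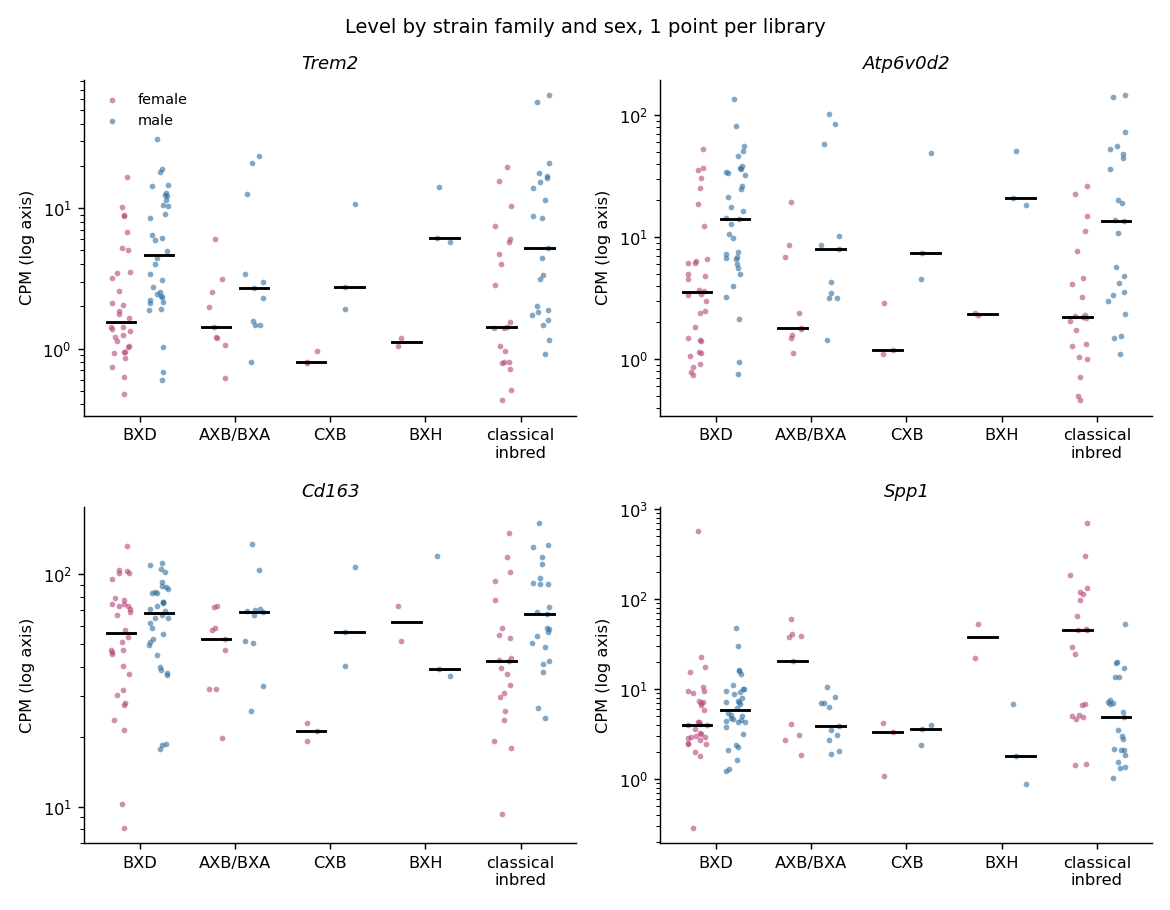
CPM on a log axis by strain family and sex for Trem2, Atp6v0d2, Cd163 and Spp1, 1 point per library, with bars at the medians. Male medians of Trem2 and Atp6v0d2 stand above female medians in every family, and female Spp1 is higher in classical inbred (median 44.9 CPM) than in BXD strains (4.03 CPM).

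Most pairs of members varied together over male libraries, and fewer passed over female libraries. Over male libraries 35 of 36 pairs of members had a positive correlation that passed (Benjamini-Hochberg over 36 pairs, permutation test), with a median r of 0.64. Over female libraries 20 pairs passed with a positive sign and 1 with a negative sign, with a median r of 0.40. All values of a library share its cell composition and its scaling, and no share over all pairs of genes is given beside these counts. Trem2 and Atp6v0d2 had r = 0.96 and rho = 0.96 in males, the highest of the 36 pairs, and 0.81 and 0.75 in females, where 3 pairs were higher. Mrc1 and Cd163 had r = 0.80 and rho = 0.76 in males and 0.83 and 0.83 in females. Cd68 and Itgax had r = 0.86 in males and 0.82 in females, whereas Itgax and Cd163 had 0.26 and 0.00. Leaving out 2 extreme libraries gave r = 0.96 and 0.82 for Trem2 with Atp6v0d2, 0.75 and 0.79 for Mrc1 with Cd163, and 0.83 and 0.77 for Cd68 with Itgax, males first. By Spearman rank, 35 pairs passed in males and 21 in females, 0 of them negative.

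The pairs of Cd9 are given for each sex, and the difference between the sexes was not tested. Over males, 8 of its 8 pairs passed, with r = 0.77 to both Trem2 and Cd68. Over females 1 of 8 passed, that with Spp1 (r = 0.37), and r to Trem2 and Cd68 was -0.05 and -0.03. Spp1 passed with 7 of 8 in males and 2 of 8 in females, and the negative pair was Spp1 and Cd163 in females (r = -0.29, adjusted p = 0.0273, with rho = -0.18 and an adjusted p of 0.252).

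**Figure D5:**
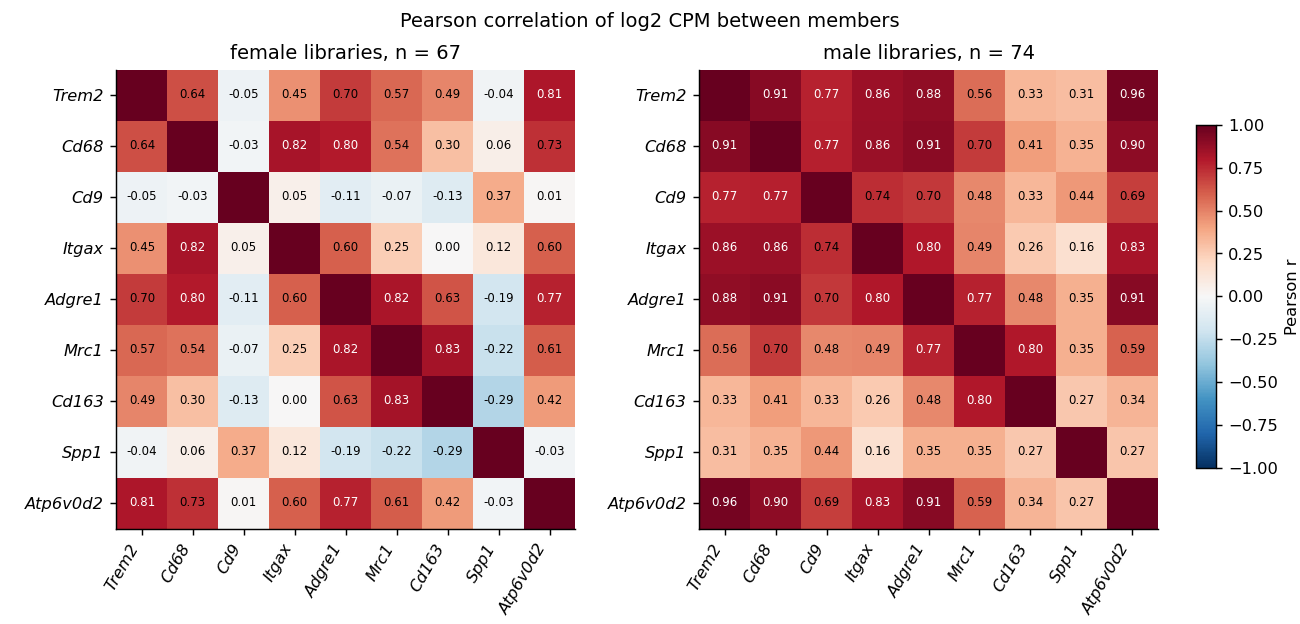
Pearson correlation of log2 CPM between each pair of members over 67 female (left) and 74 male (right) libraries, from blue (-1) to red (1). The column of Cd9 is near 0 in females, except with Spp1 (r = 0.37), and red in males, and the square of Trem2, Cd68, Itgax, Adgre1 and Atp6v0d2 is red in both sexes.

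Genes with the most similar pattern were sought over the libraries of both sexes after the mean of each sex was subtracted, among 15078 other genes, as a description. Beside the identifier with equal values, Trem2 was closest to Atp6v0d2 (r = 0.90) and Tm4sf19 (0.88), and Atp6v0d2 to Tm4sf19 (0.94), Atf3 (0.93) and Mmp12 (0.92). Cd68 was closest to Slc11a1 (0.92), Slc37a2 (0.92) and Pld3 (0.91), and Itgax to Igsf6 (0.89), Myo1f (0.89) and Adam8 (0.87). Adgre1 was closest to Tbxas1 (0.93), Tlr8 (0.93) and Fcgr3 (0.92). Mrc1 was closest to F13a1 (0.90), Dab2 (0.89) and Folr2 (0.87), and Cd163 to F13a1 (0.86), Rnase4 (0.83) and Mrc1 (0.81). Cd9 was closest to Trim29 (0.79), 2010111I01Rik (0.75) and S1pr2 (0.74). Spp1 had lower values, with Lalba (0.60), Cd14 (0.57) and Slc39a14 (0.48). Trim29 is expressed in epithelia, and Lalba encodes a milk protein.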

How the data were processed

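RNA was taken from subcutaneous adipose tissue and sequenced as poly(A) libraries by the study. The authors quantified reads with kallisto (version 0.46.1 in the submitters' processing notes) against the Ensembl release 97 transcriptome of GRCm38 (mm10) and summed transcripts to genes. The deposited tables hold estimated counts, 30.3% of which are not whole, and the deposited TPM values of the same libraries, which are scaled for transcript length. Of 36558 genes, 35856 were paired with a symbol. Sex and strain came from the labels, and the 2 sexes of a strain were paired by its name. Estimated counts were rounded and tested with edgeR 4.0.16 (R 4.3.3) as strain plus sex after filterByExpr and TMM scaling, as the study fitted strain and sex, or as strain family within a sex, over all genes with Benjamini-Hochberg adjustment at 0.05. CPM are TMM-scaled, and log2 CPM used a prior count of 2. Correlations and the BXD comparison used 100000 permutations, whose smallest p is 1e-05. With 1 library per sex of a strain, the tests of sex and of strain rest on how the sex difference varied between strains. Variation between single mice is part of this. The family comparisons rest on the spread between strains within a family and sex. limma 3.58.1, DESeq2 1.42.0, other scalings and filters, and pseudocounts of 1 and 0.1 on TPM were the alternatives. Leaving out CE/J and KK/HlJ, leaving out BXD56/RwwJ, leaving out libraries with Y-linked genes against the label in the correlations and the BXD comparison, and the latter on log2(TPM + 1) were added after the data were seen. The fits were run on simulated counts with the same spread for all genes, which was not set to that of the members. Of the changed genes, 100% were called for sex and 99% between strains. For BXD against classical inbred strains 89% were called in females and 91% in males. For AXB/BXA against BXD strains the shares were 60% and 65.5%. The text names the 9 members, the 3 genes closest to each, and from 5 macrophage lists up to 2 genes called in each direction with the largest change, and other genes named (Lalba, Krt14, Krt5 and Cldn7) were chosen after their values were seen. The members and lists were chosen with earlier results of these data known. Positions are from GENCODE mouse release M21 and start sites from RefSeq, both on GRCm38.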

Additional observations from a re-analysis of the deposited data

Results flagged for a closer look

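Itgax of the AXB/BXA female AXB12/PgnJ stood apart from the other libraries of its group. It was 90.1 TPM against a highest value of 14.5 TPM and a median of 6.68 TPM in the other libraries (n = 9, gap of 0.560 of the range of log2 CPM). All 9 members were examined in this way in the AXB/BXA females, the only group of 4 to 10 libraries, and chance alone flags about 1 in 20. The male of AXB12/PgnJ had 2.69 TPM of Itgax, the lowest of the 11 AXB/BXA males.

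Spp1 differed in its sex difference between BXD and other strains, by -1.90 on the log2 scale (adjusted p = 0.0357, permutation test). The difference was -1.91 without NZW/LacJ (adjusted p = 0.0425) and -1.88 on log2(TPM + 1) (adjusted p = 0.0178).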

How the results depend on the processing

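The 7 members lower and 2 higher in females kept their direction and passed in each of 15 fits per member, with and without the strain block, with log2 fold changes of -2.08 to -1.40 for Atp6v0d2, 0.91 to 1.06 for Cd9 and 0.97 to 2.81 for Spp1; the replicate block (strain) thus changed no call, with 7 lower and 2 higher in either fit, and without it Spp1 moved to 2.81. Library totals moved the median log2 fold change of all genes to 0.12 and the calls over all genes from 4988 lower and 4759 higher to 2774 and 7410. Limma on log2(TPM + 1) gave 2878 and 5354. The number of members lower in BXD than in classical inbred females, 2, was 0 with at least 10 counts in every library, which removed Spp1 and Atp6v0d2 from the test, 0 with only the 2 families compared, 0 without libraries whose Y-linked genes go against their label, 1 with limma on log2(TPM + 1) and 1 without CE/J and KK/HlJ. Of the members higher in AXB/BXA than in BXD females, 0 in the main comparison, there was 1, Spp1, without BXD56/RwwJ. The members that differed between strains numbered 7 to 9.

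Values that changed sign were of comparisons that did not pass. For BXD against classical inbred strains these were Cd68 in females (-0.040 with limma on TPM), and in males Adgre1 (0.12 with limma on TPM and 0.34 without CE/J and KK/HlJ), Mrc1 (0.069 and 0.027), Spp1 (0.25 and 0.36), Atp6v0d2 (0.10 and 0.26) and Cd9 (0.062 without CE/J and KK/HlJ). For AXB/BXA against BXD strains these were in females Cd163 (0.020 with limma on TPM) and Spp1 (-0.010 with DESeq2, -0.014 with RLE size factors, -0.18 with library totals, -0.0070 with only the 2 families and -0.072 without libraries whose Y-linked genes go against their label), and in males Cd68 (-0.094) and Atp6v0d2 (-0.38), both with limma on TPM. The correlation of the female and the male library was -0.084 for Spp1 without 2 strains. The difference of the sex difference between BXD and other strains was -0.030 for Trem2 and -0.0019 for Cd68 on log2(TPM + 1). The cause was not tested. Precision is limited by 1 library per sex of a strain, and for Trem2 in females by counts as low as 12.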
